A study of Mus musculus with 28 samples.

Results

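The interferon-induced gene families are named for genes that cells switch on when interferon, a secreted alarm signal of virus infection and inflammation, binds its receptors. They were measured here in mouse cortical tissue 48 h after an experimental brain injury. Members were all genes whose symbol starts with Ifi, Oas, Gbp, Irf and a digit, Isg, Iigp, Igtp or Irgm, with Mx1, Mx2, Bst2, Usp18 and Rsad2. The rule found 68 genes among the 30691 that could be named, each represented by its brightest transcript cluster, the unit the array reports. Irf1 was the one member with another transcript cluster. The rule worked on names. Mean signal over the 28 arrays entered only to pick the brightest cluster, which mattered for Irf1 alone. The rule also takes in Irf2bp1, Irf2bp2 and Irf2bpl, which are named for binding IRF2. A matching name does not show that interferon induces a gene. A further 6 transcript clusters that list a gene of these families beside another gene, among them Gbp5 with Gbp2b and Ifi47 with Olfr56, were not members.

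The 28 mice were 12 to 15 weeks old and fell into 4 groups of 7 arrays, 1 mouse each. Mice labelled KO for Rbm5, which encodes an RNA-binding splicing regulator, received a controlled cortical impact (KO CCI, 3 males) or a sham procedure (KO sham, 4 males), and WT mice received the same (WT CCI, 3 males, and WT sham, 3 males). The impact of 6.0 m/s to a depth of 1.2 mm followed a craniotomy over the left parietal cortex. Sham mice had anaesthesia without craniotomy, so every injury change covers craniotomy and impact together. All mice were perfused with cold buffer before the tissue was frozen. How the Rbm5 allele was made, in which cells it is lost and the strain of the mice are not given in the labels. Rbm5 signal was 9.75 ± 0.04 on KO CCI, 9.76 ± 0.07 on KO sham, 10.66 ± 0.06 on WT CCI and 10.78 ± 0.04 on WT sham arrays (SD, log2 scale), and KO arrays lay below every WT array after either procedure. Whether its probes lie in the deleted part is not given.

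Background on the pathway orders the account. Type I interferons act through Ifnar1 and Ifnar2 and the kinases Jak1 and Tyk2 to assemble a complex with STAT2 and IRF9 that binds the interferon-stimulated response element in promoters. Interferon gamma acts through Ifngr1 and Ifngr2, and its targets carry the gamma-activated site. Microglia, astrocytes, endothelial cells and blood-derived macrophages of the brain can all respond.

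Promoter windows (from 250 bases before to 50 after each RefSeq transcript start, build GRCm38.p6) were matched for 51 of the 68 members. The core of the response element was searched as GAAA, any 2 bases and GAAA, and the gamma-activated site as TTC, any 3 bases and GAA, on both strands, matches that overlap counted singly. The response element core occurred in 51.0% of the matched members (26 of 51), against 3.99% of all 27025 genes with a window. The gamma-activated site occurred in 27.5% of the matched members (14), against 9.55% of all genes. The 250 bases before the start are printed for 6 members, with every match in capitals, as a reverse complement where it lies on the opposite strand. They show 4 members that rose after injury and hold the core, Isg15, which holds it and did not pass the test, and Ifi30, which had the highest rise and holds neither motif.
Ifit3: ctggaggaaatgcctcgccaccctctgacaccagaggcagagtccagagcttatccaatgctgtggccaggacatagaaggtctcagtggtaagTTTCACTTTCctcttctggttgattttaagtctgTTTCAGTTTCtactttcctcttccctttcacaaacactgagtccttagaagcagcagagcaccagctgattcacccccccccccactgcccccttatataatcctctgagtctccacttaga
Gbp7: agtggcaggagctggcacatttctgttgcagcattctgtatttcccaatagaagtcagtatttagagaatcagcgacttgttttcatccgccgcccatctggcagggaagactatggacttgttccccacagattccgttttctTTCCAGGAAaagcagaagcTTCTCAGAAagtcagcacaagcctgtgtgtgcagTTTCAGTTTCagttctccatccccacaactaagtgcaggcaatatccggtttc
Irgm1: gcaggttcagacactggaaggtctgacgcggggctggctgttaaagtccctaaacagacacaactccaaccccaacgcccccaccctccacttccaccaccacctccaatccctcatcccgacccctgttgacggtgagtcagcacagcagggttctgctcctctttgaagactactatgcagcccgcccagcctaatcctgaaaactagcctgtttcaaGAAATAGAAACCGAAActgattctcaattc
Bst2: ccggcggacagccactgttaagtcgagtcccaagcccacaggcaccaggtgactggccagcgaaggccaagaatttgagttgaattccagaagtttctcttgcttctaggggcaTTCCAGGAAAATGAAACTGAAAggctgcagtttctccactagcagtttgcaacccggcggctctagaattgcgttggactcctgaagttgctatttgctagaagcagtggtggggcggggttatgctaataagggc
Isg15: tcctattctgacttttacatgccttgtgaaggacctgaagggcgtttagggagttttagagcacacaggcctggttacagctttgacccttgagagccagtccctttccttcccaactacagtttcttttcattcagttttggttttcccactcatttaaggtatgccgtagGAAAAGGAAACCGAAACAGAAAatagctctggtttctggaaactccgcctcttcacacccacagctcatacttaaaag
Ifi30: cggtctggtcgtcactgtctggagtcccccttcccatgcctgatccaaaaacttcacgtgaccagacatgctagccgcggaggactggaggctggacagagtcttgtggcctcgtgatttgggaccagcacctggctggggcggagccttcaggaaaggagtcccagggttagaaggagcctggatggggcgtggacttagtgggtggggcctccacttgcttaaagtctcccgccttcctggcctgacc
These windows lie at chr19:34583279-34583528, plus strand (Ifit3), chr3:142530086-142530335, plus strand (Gbp7), chr11:48871421-48871670, minus strand (Irgm1), chr8:71537473-71537722, minus strand (Bst2), chr4:156200819-156201068, minus strand (Isg15) and chr8:70766664-70766913, minus strand (Ifi30). The first base of the core lay 156 and 122 bases before the start in Ifit3 and 53 bases in Gbp7. In Irgm1 the distances were 30 and 24 bases, in Bst2 130 and 124, and in Isg15 the outermost of 3 overlapping matches were 78 and 66 bases away. Gbp7 also has 2 matches of the gamma-activated site, the farther one 106 bases before the start, and Bst2 has 1 at 136 bases that overlaps its core. A match describes letters in a window and is not a measured binding site.

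Some injured arrays stood apart from the others of their group. Over the 40 members called higher in both genotypes, KO CCI array 23 was the highest of its group for 29 and WT CCI array 15 for 34. The lowest of the group was most often KO CCI array 41 (16 members) and WT CCI array 13 (27 members). The mean log2 signal over these 40 members was 7.35 on KO CCI array 23 and between 6.63 and 6.96 on the other KO CCI arrays. It was 7.59 on WT CCI array 15 and between 6.58 and 6.98 on the other WT CCI arrays. Sham arrays lay between 5.94 and 6.17 in KO and between 5.91 and 6.09 in WT mice. These 40 members were picked because they rose, which sets injured above sham arrays in this mean. A high value on an injured array may also have helped a member to be picked. Over all 68 members the array means were 6.23, 6.39 and 6.74 on KO CCI arrays (lowest, median and highest), against 5.79, 5.87 and 5.95 on KO sham arrays, and 6.19, 6.36 and 6.86 on WT CCI arrays, against 5.80, 5.85 and 5.91 on WT sham arrays. Both high arrays came from females. The monocyte and macrophage marker list averaged 7.51 on KO CCI array 23, within its group's range of 7.24 to 7.91, and 7.96 on WT CCI array 15, where the range was 7.42 to 8.04. The homeostatic microglia list was lowest of the KO CCI group on array 23, at 7.79. On WT CCI array 15 it was 8.47, where the range was 7.71 to 8.68. The endothelial and astrocyte lists were highest of the WT CCI group on array 15, at 8.90 and 11.07. On KO CCI array 23 they were 8.42 and 10.78, within the group's ranges of 8.31 to 8.60 and 10.61 to 11.04. The striatum list averaged 8.06 on KO CCI array 23, where the group's range was 6.80 to 9.35. On WT CCI array 15 it averaged 6.88, where the range was 6.75 to 9.17. The part of these cell types and of striatum in the 2 high arrays was not tested.

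**Figure D1:**
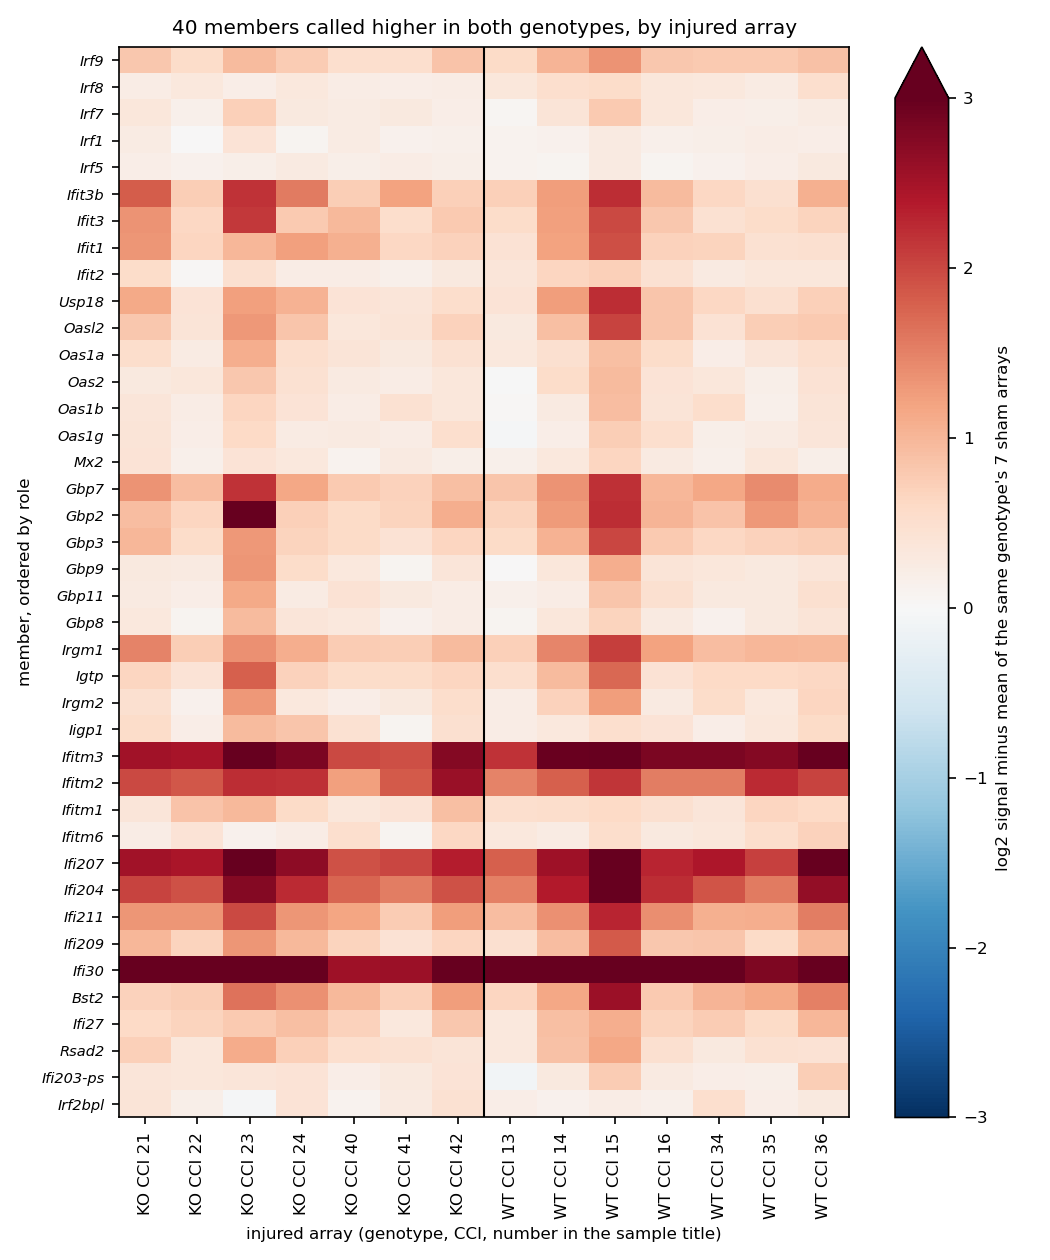
The 40 members called higher in both genotypes (rows, by role) on the 14 injured arrays (columns, KO CCI left of WT CCI); colour is log2 signal minus the mean of the same genotype's 7 sham arrays, and differences over 3 share the darkest colour. The columns of KO CCI array 23 and WT CCI array 15 are darkest across most families, and Ifi30, Ifitm3 and Ifi207 are dark on all injured arrays.

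Injury changed these families in both genotypes, almost always upwards. In KO mice 44 of the 68 members rose and 1, Irf2, fell, where 16.7% of all transcript clusters were called (8.43% higher and 8.27% lower). In WT mice 43 rose and 0 fell with limma (0 lower at an unadjusted p under 0.05 too), where 16.8% of all transcript clusters were called (8.86% higher and 7.96% lower). Among the 30691 named genes, read like the members from the brightest cluster, 21.2% were called in KO mice (12.4% higher and 8.77% lower). The share of named genes called in WT mice was 22.2% (13.8% higher and 8.37% lower). The median log2 change of the members was 0.31 in KO and 0.35 in WT mice, beside 0.01 in KO and -0.02 in WT mice over all transcript clusters. A log2 change of at least 1 was called for 9 members in KO and 11 in WT mice. The share of all transcript clusters at that size was not computed, so these counts have no background beside them. Members that rose in both numbered 40, which is 90.9% of those that rose in KO and 93.0% of those that rose in WT mice. The same overlap over all transcript clusters was not computed, so it cannot be read as particular to these families. Every CCI array lay above every sham array for 30 members in KO and 30 in WT mice, against 3.51% of all transcript clusters in KO and 4.44% in WT mice. With KO CCI array 23 and WT CCI array 15 both left out, 44 of the 45 members called in KO and 41 of the 43 called in WT mice were still called. In bulk tissue, more cells of a type that carries these transcripts and more transcript per cell cannot be told apart.

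**Figure D2:**
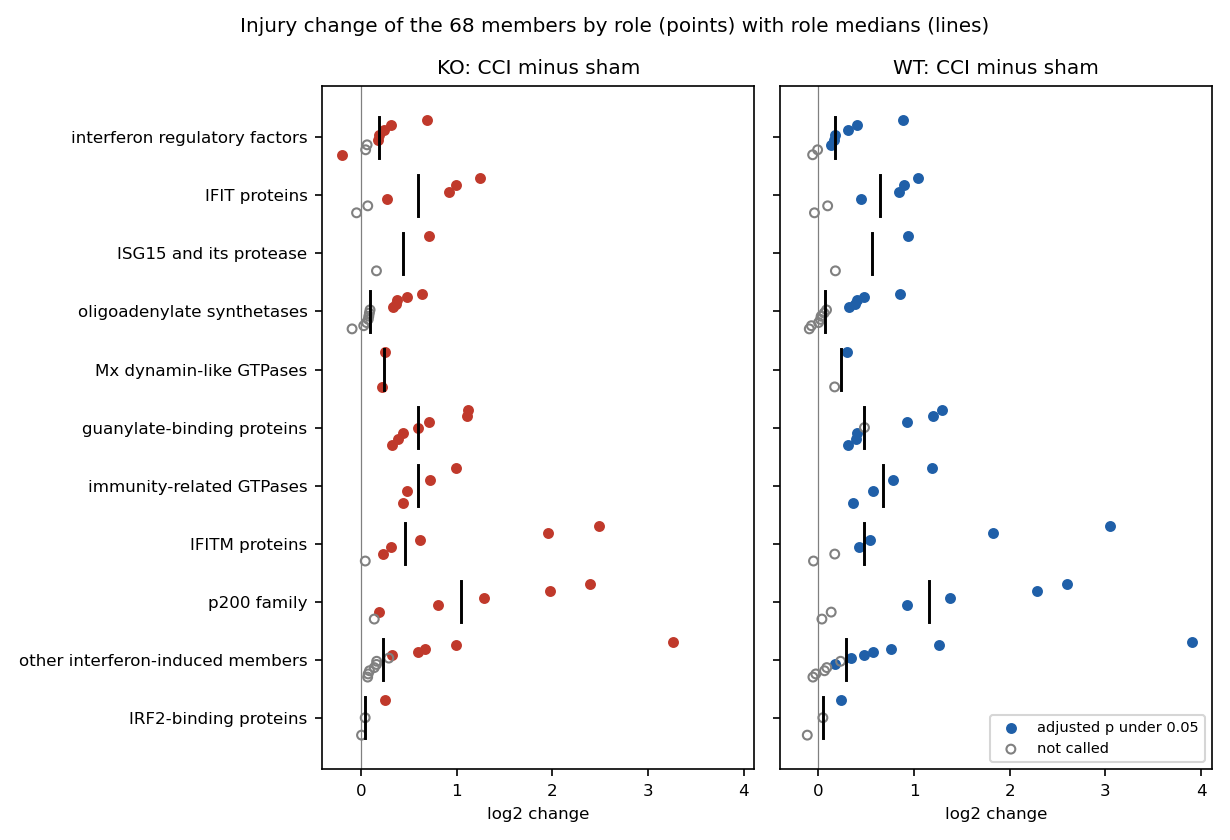
Log2 change after injury (CCI minus sham) of the 68 members by role, KO left and WT right; filled points passed an adjusted p under 0.05, open points did not, and vertical lines are role medians. Most filled points lie right of 0, the p200 family has the highest median (1.04 in KO, 1.15 in WT), and the lone filled point left of 0 is Irf2 in KO mice.

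Sham levels decide how a fold can be read. In 38 of the 68 members the sham mean of both genotypes was below 5.79, the lowest median of any array. The negative control clusters had medians of 6.54 to 6.75 on the arrays, and the sham means of 49 members, Ifi30 among them, lay below 6.54 in both genotypes. At such signal background may make up much of a value, so log2 changes are given as measured on the array and not as exact folds of RNA. The 38 include all 12 oligoadenylate synthetases, both Mx genes, Isg15, Usp18, Ifi204, Ifi211, Irf7, Irf8, Rsad2, Irgm2, Iigp1 and Ifitm1.

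Interferon regulatory factors are the transcription factors of the pathway. Of 8 interferon regulatory factors, 5 rose and 1 fell in KO mice, and 6 rose in WT mice. Irf9, which carries the DNA contact of the complex with STAT2, read 7.25, 7.50 and 7.69 on KO CCI arrays, against 6.67, 6.76 and 6.83 on KO sham arrays (lowest, median and highest of 7 log2 values, here and below). In WT mice it read 7.24, 7.48 and 8.01 on WT CCI arrays, against 6.55, 6.65 and 6.82 on WT sham arrays. No CCI array overlapped a sham array in either genotype. The log2 change was 0.69 in KO mice (SE 0.08, adjusted p = 4.95e-07) and 0.89 in WT mice (SE 0.08, adjusted p = 3.5e-09). Irf8, a factor of myeloid cells and microglia, read 5.63, 5.64 and 5.75 on KO CCI arrays, against 5.27, 5.47 and 5.55 on KO sham arrays, and 5.63, 5.72 and 5.92 on WT CCI arrays, against 5.30, 5.36 and 5.43 on WT sham arrays. All injured arrays again lay above the sham arrays, with log2 changes of 0.24 in KO mice (SE 0.05, adjusted p = 0.00092) and 0.40 in WT mice (SE 0.05, adjusted p = 9.64e-07). Irf7, which drives transcription of type I interferon genes, read 5.57, 5.69 and 6.12 on KO CCI arrays, against 5.31, 5.40 and 5.53 on KO sham arrays. In WT mice the values were 5.50, 5.68 and 6.21 on WT CCI arrays, against 5.35, 5.46 and 5.54 on WT sham arrays. The groups were apart in KO mice, and at least 1 WT CCI array lay within the sham range, with log2 changes of 0.31 in KO mice (SE 0.08, adjusted p = 0.00716) and 0.31 in WT mice (SE 0.08, adjusted p = 0.00636).

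Smaller changes among the factors included Irf1, a transcription activator induced by interferon gamma, at 0.18 in KO and 0.18 in WT mice, and Irf5, which acts below Toll-like receptors, at 0.19 in KO and 0.17 in WT mice. Irf2, which competes with IRF1 for the same sites, fell by 0.20 on the log2 scale in KO mice (SE 0.05, adjusted p = 0.00457) and had a change of -0.06 in WT mice (adjusted p = 0.483). Its values were 8.19, 8.29 and 8.36 on KO CCI arrays, against 8.34, 8.44 and 8.60 on KO sham arrays, and 8.204, 8.34 and 8.55 on WT CCI arrays, against 8.41, 8.45 and 8.49 on WT sham arrays. In both genotypes at least 1 CCI array lay within the sham range. Irf3, the sensor-activated factor present before infection, was 0.05 (adjusted p = 0.549) in KO and 0.13 (adjusted p = 0.0441) in WT mice, and the WT call was lost without any one of 10 arrays. Irf4 changed by 0.07 in KO and -0.01 in WT mice and was not called. Among the proteins named for binding IRF2, Irf2bpl was 0.25 (adjusted p = 0.0341) in KO and 0.24 (adjusted p = 0.0458) in WT mice. It read 8.63, 8.93 and 9.12 on KO CCI arrays, against 8.55, 8.60 and 9.08 on KO sham arrays, and 8.79, 8.85 and 9.16 on WT CCI arrays, against 8.42, 8.67 and 8.78 on WT sham arrays. The groups overlapped in KO and not in WT mice, and the calls were lost without any one of 10 arrays (KO) or 15 arrays (WT). Irf2bp1 and Irf2bp2 were not called, with changes of 0.05 in KO and 0.05 in WT mice and 0.01 in KO and -0.12 in WT mice.

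The IFIT proteins bind foreign RNA and block its translation. Of 6 members, 4 rose in each genotype, the same 4 genes. Ifit3b read 7.31, 7.81 and 8.76 on KO CCI arrays, against 6.32, 6.56 and 7.06 on KO sham arrays. Its WT values were 7.13, 7.59 and 8.85 on WT CCI arrays, against 6.32, 6.54 and 7.28 on WT sham arrays. Groups were apart in KO mice, and in WT mice the highest sham array reached into the CCI range. The log2 change was 1.24 in KO mice (SE 0.23, adjusted p = 0.000226) and 1.05 in WT mice (SE 0.23, adjusted p = 0.0012). Ifit3, whose promoter with 2 cores is printed above, read 7.52, 7.78 and 9.12 on KO CCI arrays, against 6.78, 7.000 and 7.40 on KO sham arrays. The WT values were 7.47, 7.70 and 9.002 on WT CCI arrays, against 6.72, 7.002 and 7.25 on WT sham arrays. Injured arrays lay above sham arrays throughout, with log2 changes of 0.996 in KO mice (SE 0.21, adjusted p = 0.000775) and 0.89 in WT mice (SE 0.20, adjusted p = 0.00211). The top arrays of both injured groups were the 2 named above, at 9.12 on KO CCI array 23 and 9.002 on WT CCI array 15. Ifit1 read 6.995, 7.37 and 7.70 on KO CCI arrays, against 6.02, 6.23 and 7.09 on KO sham arrays, and 6.93, 7.16 and 8.43 on WT CCI arrays, against 6.34, 6.43 and 6.68 on WT sham arrays. Its groups overlapped in KO mice through 1 high sham array and were apart in WT mice, with log2 changes of 0.92 in KO mice (SE 0.18, adjusted p = 0.000579) and 0.84 in WT mice (SE 0.18, adjusted p = 0.00128). Ifit2 rose by less, 0.27 in KO and 0.45 in WT mice, and its KO call (adjusted p = 0.0443) was lost without any one of 10 arrays. The paralogs Ifit1bl1 (0.07 in KO and -0.04 in WT mice) and Ifit1bl2 (-0.05 in KO and 0.10 in WT mice) were not called. Ifit3 and Ifit3b are close copies, and how far their probes tell them apart was not tested.

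Usp18 rose in both genotypes and Isg15 passed the test in neither. Usp18, which removes ISG15 from proteins and dampens the type I receptor, read 5.61, 5.78 and 6.47 on KO CCI arrays, against 5.05, 5.23 and 5.52 on KO sham arrays. WT values were 5.62, 5.92 and 7.42 on WT CCI arrays, against 5.11, 5.22 and 5.35 on WT sham arrays. Neither genotype had an injured array within the sham range, and the log2 change was 0.71 in KO mice (SE 0.19, adjusted p = 0.00817) and 0.94 in WT mice (SE 0.19, adjusted p = 0.000504). Isg15, the ubiquitin-like modifier, read 4.96, 5.09 and 5.75 on KO CCI arrays, against 4.76, 4.96 and 5.14 on KO sham arrays, and 4.92, 5.07 and 5.21 on WT CCI arrays, against 4.73, 4.96 and 5.07 on WT sham arrays. Its CCI and sham arrays overlapped in both genotypes and the change was 0.16 (adjusted p = 0.212) in KO and 0.18 (adjusted p = 0.167) in WT mice, not called. All its group medians lay below the lowest array median.

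Oligoadenylate synthetases make short RNA-like messengers that switch on the nuclease RNase L. Of 12 members the same 5 rose in each genotype: Oasl2, Oas1a, Oas2, Oas1b and Oas1g. Oasl2 read 5.34, 5.67 and 6.30 on KO CCI arrays, against 4.80, 4.95 and 5.29 on KO sham arrays. Its WT values were 5.33, 5.81 and 7.07 on WT CCI arrays, against 4.87, 5.06 and 5.15 on WT sham arrays. The groups were apart in both genotypes, with log2 changes of 0.64 in KO mice (SE 0.16, adjusted p = 0.00483) and 0.86 in WT mice (SE 0.16, adjusted p = 0.0002). Oas1a read 5.42, 5.63 and 6.25 on KO CCI arrays, against 5.03, 5.09 and 5.34 on KO sham arrays, and 5.38, 5.66 and 6.09 on WT CCI arrays, against 5.05, 5.14 and 5.42 on WT sham arrays. It was apart in KO and overlapped in WT mice, with log2 changes of 0.48 in KO mice (SE 0.10, adjusted p = 0.000925) and 0.47 in WT mice (SE 0.10, adjusted p = 0.000988). Oas2 read 5.12, 5.25 and 5.72 on KO CCI arrays, against 4.82, 4.88 and 4.999 on KO sham arrays, and 4.93, 5.35 and 5.87 on WT CCI arrays, against 4.82, 4.89 and 5.10 on WT sham arrays. Here too the KO groups were apart and the WT groups overlapped, since WT CCI array 13 read like a sham array, and the log2 changes were 0.38 in KO mice (SE 0.09, adjusted p = 0.004) and 0.41 in WT mice (SE 0.09, adjusted p = 0.00184). Oas1b (0.36 in KO and 0.38 in WT mice) and Oas1g (0.33 in KO and 0.31 in WT mice) followed. The other 7 members, Oas1c, Oas1d, Oas1e, Oas1f, Oas1h, Oas3 and Oasl1, had changes between -0.09 and 0.10 in KO and between -0.10 and 0.08 in WT mice. None of those 7 was called, and their sham means were all below 5.79.

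Mx proteins are dynamin-like GTPases that trap virus particles. Mx2 read 5.86, 6.03 and 6.18 on KO CCI arrays, against 5.55, 5.83 and 5.86 on KO sham arrays. Its WT signal was 5.89, 6.03 and 6.40 on WT CCI arrays, against 5.69, 5.72 and 5.86 on WT sham arrays. Groups did not overlap in either genotype, and the log2 change was 0.26 in KO mice (SE 0.07, adjusted p = 0.0104) and 0.30 in WT mice (SE 0.07, adjusted p = 0.00269). Mx1 read 4.72, 4.89 and 5.05 on KO CCI arrays, against 4.53, 4.65 and 4.88 on KO sham arrays, and 4.61, 4.85 and 5.14 on WT CCI arrays, against 4.62, 4.70 and 4.75 on WT sham arrays. Its groups overlapped in both genotypes, with a rise of 0.23 (adjusted p = 0.0153) in KO mice and a change of 0.17 (adjusted p = 0.0763) in WT mice that was not called. The 2 genotypes' changes were not shown to differ for either gene (interaction log2 0.06 for Mx1 and -0.04 for Mx2).

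Guanylate-binding proteins are large GTPases that attack vacuoles holding microbes and are classic targets of interferon gamma. All 7 members rose in KO and 6 in WT mice. Gbp7 read 8.36, 8.61 and 9.84 on KO CCI arrays, against 7.54, 7.65 and 7.82 on KO sham arrays. The WT values were 8.48, 8.79 and 9.82 on WT CCI arrays, against 7.50, 7.65 and 7.74 on WT sham arrays. All injured arrays lay above all sham arrays, with log2 changes of 1.12 in KO mice (SE 0.17, adjusted p = 2.07e-05) and 1.29 in WT mice (SE 0.17, adjusted p = 1.59e-06). Gbp2 read 6.78, 6.92 and 9.66 on KO CCI arrays, against 6.03, 6.21 and 6.46 on KO sham arrays, and 6.79, 7.15 and 8.32 on WT CCI arrays, against 5.87, 6.16 and 6.22 on WT sham arrays. The groups were apart, yet KO CCI array 23 at 9.66 stood far above the next KO array at 7.29. Its log2 change was 1.11 in KO mice (SE 0.28, adjusted p = 0.00552) and 1.20 in WT mice (SE 0.28, adjusted p = 0.00246), and 0.76 in KO and 1.04 in WT mice without the 2 high arrays. Gbp3 read 6.53, 6.74 and 7.39 on KO CCI arrays, against 5.93, 6.15 and 6.29 on KO sham arrays, and 6.63, 6.78 and 8.05 on WT CCI arrays, against 5.71, 6.10 and 6.15 on WT sham arrays. There was no overlap in either genotype, and the log2 change was 0.72 in KO mice (SE 0.16, adjusted p = 0.00134) and 0.93 in WT mice (SE 0.15, adjusted p = 5.51e-05).

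These leading GBPs, Gbp2, Gbp3 and Gbp7, all lie on chromosome 3. The members on chromosome 5, Gbp4, Gbp8, Gbp9 and Gbp11, had changes of 0.33 to 0.59 in KO and 0.31 to 0.48 in WT mice. Gbp4 was 0.59 (adjusted p = 0.0488) in KO mice and 0.48 (adjusted p = 0.119), not called, in WT mice. KO CCI array 23 read 9.54 where the group median was 7.57, and without it the KO log2 change was 0.34. The KO call was lost without any one of 21 other arrays, and it was kept without the 2 high arrays (0.34, adjusted p = 0.00363). Gbp9 was called in both genotypes (0.44 in KO and 0.40 in WT mice), a call lost without any one of 4 arrays in KO and 16 in WT mice and kept in both without the 2 high arrays. The WT call of Gbp8 was lost without WT sham array 4 or WT CCI array 15.

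Immunity-related GTPases work beside the GBPs on the same vacuoles. All 4 members rose in both genotypes. Irgm1, a regulator of the family, read 7.73, 7.95 and 8.47 on KO CCI arrays, against 6.83, 6.97 and 7.17 on KO sham arrays. WT signal was 7.66, 7.94 and 9.03 on WT CCI arrays, against 6.60, 6.94 and 7.24 on WT sham arrays. Groups were apart throughout, and the log2 change was 0.999 in KO mice (SE 0.15, adjusted p = 2.09e-05) and 1.19 in WT mice (SE 0.15, adjusted p = 9.9e-07). Igtp, another regulator, read 6.77, 7.01 and 8.15 on KO CCI arrays, against 6.04, 6.39 and 6.64 on KO sham arrays, and 6.81, 6.98 and 8.09 on WT CCI arrays, against 6.18, 6.35 and 6.62 on WT sham arrays. It also showed no overlap, with log2 changes of 0.72 in KO mice (SE 0.16, adjusted p = 0.00224) and 0.78 in WT mice (SE 0.16, adjusted p = 0.000896). Irgm2 read 5.55, 5.74 and 6.71 on KO CCI arrays, against 5.19, 5.45 and 5.51 on KO sham arrays, and 5.59, 5.92 and 6.63 on WT CCI arrays, against 5.17, 5.40 and 5.52 on WT sham arrays. No CCI array fell within the sham range, but the top KO array was again 23, and the KO call was lost without it or without KO sham array 33, though it was kept without the 2 high arrays (adjusted p = 0.00691). The log2 change of Irgm2 was 0.44 in KO mice (SE 0.14, adjusted p = 0.0249) and 0.57 in WT mice (SE 0.14, adjusted p = 0.00339). Iigp1, an effector that coats the vacuole, rose by 0.48 in KO and 0.36 in WT mice.

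IFITM proteins sit in cell and endosome membranes and hinder virus entry. Of 6 members, 5 rose in KO and 4 in WT mice. Ifitm3 read 9.996, 10.57 and 11.33 on KO CCI arrays, against 7.52, 7.99 and 8.50 on KO sham arrays. Its WT values were 9.84, 10.49 and 11.86 on WT CCI arrays, against 7.29, 7.78 and 7.93 on WT sham arrays. More than 1 log2 unit separated the lowest injured array of each genotype from its highest sham array. The log2 change was 2.49 in KO mice (SE 0.22, adjusted p = 4.61e-09) and 3.05 in WT mice (SE 0.22, adjusted p = 6e-11). Ifitm2 read 8.39, 9.13 and 9.74 on KO CCI arrays, against 6.83, 7.08 and 7.65 on KO sham arrays, and 8.61, 8.91 and 9.35 on WT CCI arrays, against 6.87, 7.09 and 7.44 on WT sham arrays. Groups were clearly apart, with log2 changes of 1.95 in KO mice (SE 0.15, adjusted p = 2.36e-10) and 1.82 in WT mice (SE 0.15, adjusted p = 3.41e-10). Ifitm1 read 5.72, 5.94 and 6.35 on KO CCI arrays, against 5.18, 5.36 and 5.74 on KO sham arrays, and 5.77, 5.93 and 6.05 on WT CCI arrays, against 5.26, 5.29 and 5.67 on WT sham arrays. KO sham array 31 reached into the CCI range, the WT groups were apart, and the log2 changes were 0.61 in KO mice (SE 0.09, adjusted p = 2.48e-05) and 0.54 in WT mice (SE 0.09, adjusted p = 9.56e-05). Ifitm6 rose by 0.32 in KO and 0.42 in WT mice, and its KO call was lost without KO sham array 33 (adjusted p = 0.0602). Ifitm7 was 0.23 (adjusted p = 0.0137) in KO and 0.17 (adjusted p = 0.072) in WT mice, and Ifitm5, known from bone, was 0.05 in KO and -0.05 in WT mice and not called.

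The p200 family, cytosolic and nuclear DNA-binding proteins with HIN domains, had the highest role median. Of 6 members, 5 rose in KO and 4 in WT mice. Ifi207 read 7.73, 8.26 and 8.87 on KO CCI arrays, against 5.62, 5.82 and 6.10 on KO sham arrays. In WT mice it read 7.62, 8.25 and 9.70 on WT CCI arrays, against 5.64, 5.77 and 6.07 on WT sham arrays. The gap between injured and sham arrays exceeded 1.5 log2 units in both genotypes, and the log2 change was 2.40 in KO mice (SE 0.21, adjusted p = 2.9e-09) and 2.60 in WT mice (SE 0.21, adjusted p = 3.19e-10). Ifi204, which acts with STING in DNA sensing, read 7.16, 7.53 and 8.38 on KO CCI arrays, against 5.36, 5.63 and 5.80 on KO sham arrays, and 7.15, 7.85 and 9.47 on WT CCI arrays, against 5.36, 5.61 and 6.06 on WT sham arrays. No arrays overlapped, with log2 changes of 1.98 in KO mice (SE 0.23, adjusted p = 2.54e-07) and 2.29 in WT mice (SE 0.22, adjusted p = 1.16e-08). Ifi211 read 6.30, 6.85 and 7.52 on KO CCI arrays, against 5.43, 5.51 and 5.70 on KO sham arrays, and 6.47, 6.92 and 7.83 on WT CCI arrays, against 5.20, 5.57 and 5.83 on WT sham arrays. Its groups were likewise apart, with log2 changes of 1.28 in KO mice (SE 0.15, adjusted p = 4.92e-07) and 1.38 in WT mice (SE 0.15, adjusted p = 8.2e-08). Ifi209 rose by 0.81 in KO and 0.93 in WT mice. Ifi208 was 0.19 (adjusted p = 0.0122) in KO and 0.04 (adjusted p = 0.738) in WT mice, and Ifi213 (0.14 in KO and 0.13 in WT mice) was not called.

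Ifi30 had the highest rise of all members in both genotypes. It encodes the lysosomal thiol reductase that opens disulfide bonds of proteins before antigen presentation. Its signal was 8.81, 9.57 and 10.38 on KO CCI arrays, against 5.999, 6.35 and 6.52 on KO sham arrays. In WT mice it was 8.82, 9.83 and 11.04 on WT CCI arrays, against 5.58, 6.11 and 6.12 on WT sham arrays. More than 2 log2 units lay between the lowest injured and the highest sham array of either genotype. The log2 change was 3.26 in KO mice (SE 0.25, adjusted p = 2.82e-10) and 3.91 in WT mice (SE 0.25, adjusted p = 4.4e-12).

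Among the remaining members, Bst2, the tetherin that holds budding virus at the membrane, read 7.64, 7.91 and 8.57 on KO CCI arrays, against 6.49, 6.92 and 7.21 on KO sham arrays. The WT values were 7.58, 8.07 and 9.49 on WT CCI arrays, against 6.62, 6.90 and 7.25 on WT sham arrays. Groups were apart in both genotypes, with log2 changes of 0.998 in KO mice (SE 0.18, adjusted p = 0.000251) and 1.26 in WT mice (SE 0.18, adjusted p = 7.85e-06). Ifi27, a small membrane protein, read 7.58, 7.94 and 8.16 on KO CCI arrays, against 7.03, 7.21 and 7.52 on KO sham arrays, and 7.43, 7.88 and 8.203 on WT CCI arrays, against 6.97, 7.10 and 7.27 on WT sham arrays. It showed no overlap and log2 changes of 0.67 in KO mice (SE 0.10, adjusted p = 1.43e-05) and 0.76 in WT mice (SE 0.10, adjusted p = 1.21e-06). Rsad2, the radical enzyme viperin, rose by 0.59 in KO and 0.57 in WT mice, and the pseudogene Ifi203-ps by 0.33 in KO and 0.34 in WT mice. The KO call of Ifi203-ps was lost without KO sham array 33 (adjusted p = 0.0637), and its WT call without WT CCI array 36 (0.0528) or without the 2 high arrays (0.0549). Ifih1, the RNA sensor MDA5, was 0.29 (adjusted p = 0.0727), not called, in KO mice and 0.47 (adjusted p = 0.00251) in WT mice. Ifi35 was 0.08 (adjusted p = 0.439), not called, in KO and 0.18 (adjusted p = 0.0296) in WT mice, a WT call lost without any one of 4 arrays (adjusted p up to 0.0753). The members called in neither genotype were Ifi27l2a (0.09 in KO and 0.23 in WT mice), Ifi27l2b (0.14 in KO and -0.03 in WT mice), Ifi44l (0.07 in KO and -0.06 in WT mice), the exonuclease gene Isg20 (0.17 in KO and 0.06 in WT mice) and Isg20l2 (0.16 in KO and 0.09 in WT mice).

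**Figure D3:**
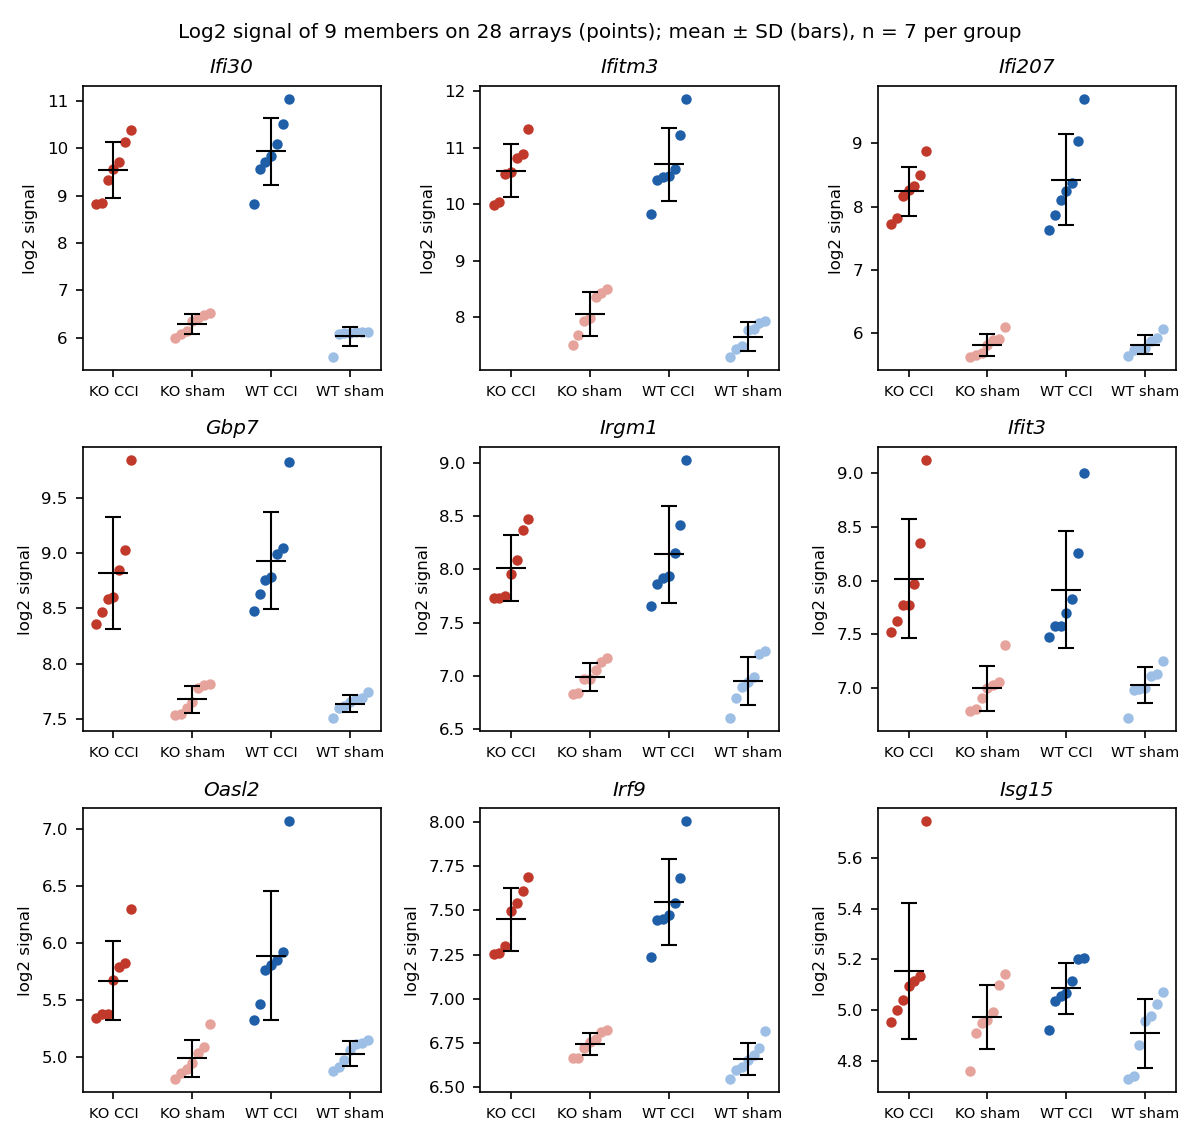
Log2 signal of 9 members on all 28 arrays (points, spread sideways by value), with group mean and SD (bars, n = 7), in the order KO CCI, KO sham, WT CCI, WT sham. Injured and sham arrays are apart for 8 of the members in both genotypes and overlap for Isg15, and the top injured array stands above its group for Gbp7, Ifit3 and Oasl2.

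Set beside the promoter windows, 17 of the 29 matched members that rose in both genotypes held the response element core (58.6%), as did 6 of the 16 matched members called in neither (37.5%). The gamma-activated site was in 34.5% of the first set and 12.5% of the second. These shares describe letters in the windows and were not tested.

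Genotype made no called difference to any of the 68 members. With limma, 0 were called after injury (KO CCI minus WT CCI), where 0.653% of all transcript clusters were called, and 1 had an unadjusted p under 0.05, as had 9.8% of all. After sham (KO sham minus WT sham) 0 were called, where 1.28% of all were, and 2 had an unadjusted p under 0.05, as had 11.1% of all. Over both procedures 0 were called, where 3.16% of all were, and 2 had an unadjusted p under 0.05, as had 12.8% of all. The median difference of the members was -0.01 after injury and 0.01 after sham. After injury the members with the smallest p were Irf2, at -0.12 (95% interval -0.22 to -0.02, adjusted p = 0.396), Ifit1bl2, Irf2bp1, Irf8 and Irf3, with differences of -0.17, 0.13, -0.10 and -0.09 for the last 4. After sham they were Ifi208, at -0.12 (95% interval -0.23 to -0.01, adjusted p = 0.4), Ifi44l, Ifitm3, Ifit2 and Irf2bp1. Ifitm3 was 0.44 (95% interval -0.01 to 0.90, adjusted p = 0.471) in that comparison. Over both procedures Irf2bp1 had the smallest p, at 0.13 (95% interval 0.03 to 0.22, adjusted p = 0.172), followed by Ifi203-ps, Ifitm6, Ifi44l and Ifi27. None of these passed the adjustment, which does not show that the genotypes had equal levels.

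The injury change itself was compared between genotypes by the interaction (KO change minus WT change). Again 0 members were called (3 at an unadjusted p under 0.05), as were 0% of all transcript clusters (6.21% unadjusted). Irf8 had the smallest p, at -0.16 (95% interval -0.30 to -0.01, adjusted p = 0.784), followed by Oas1e, Ifi208, Oas1h and Irf2. The 2 members with the largest injury changes had the most negative values, Ifi30 at -0.65 (95% interval -1.37 to 0.07, adjusted p = 0.819) and Ifitm3 at -0.55 (95% interval -1.20 to 0.09, adjusted p = 0.824). The WT change is subtracted in this value, so a WT change estimated too high also makes the interaction more negative. Without the 2 high arrays the interaction was -0.42 for Ifi30 and -0.46 for Ifitm3. The KO change was smaller than the WT change for 29 of the 47 members called higher in either genotype, and the median interaction over all members was -0.01. The members share mice and arrays, so their signs are not independent, and calls in one genotype alone (4 upward and Irf2 downward in KO, 3 upward in WT) do not show that the genotypes differ.

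**Figure D4:**
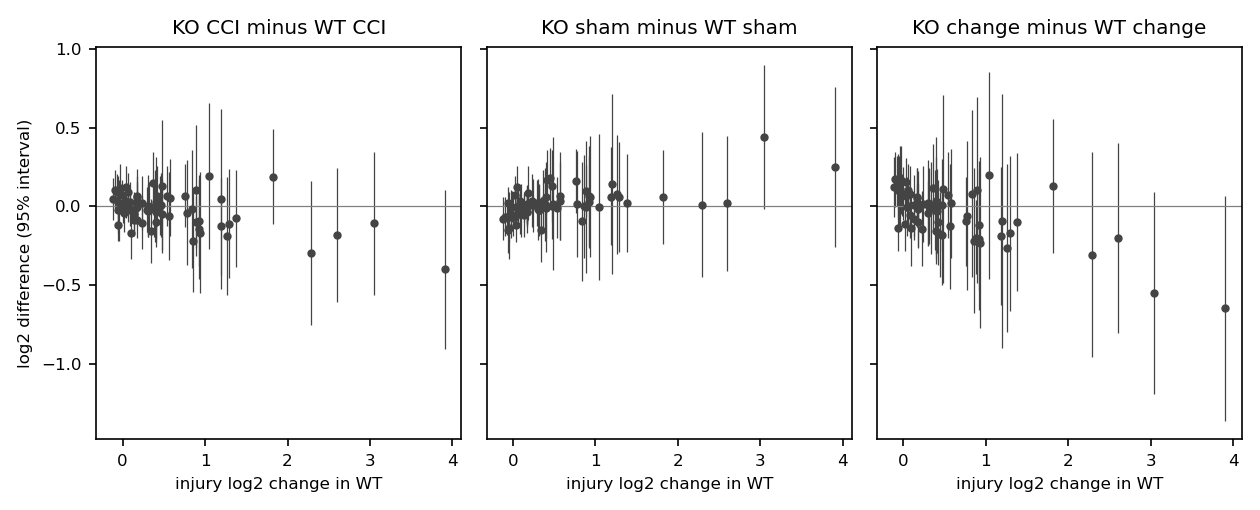
Differences between genotypes for the 68 members (log2, vertical bars are 95% intervals from limma) against their injury change in WT mice: KO CCI minus WT CCI, KO sham minus WT sham, and KO change minus WT change. Ifi30 and Ifitm3 lie farthest right, and their intervals in the last panel include 0. WT arrays enter both axes of each panel, so the axes are not independent.

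Sex was tested as male minus female over all groups. With limma 0 members were called, where 0.487% of all transcript clusters were, and 8 had an unadjusted p under 0.05, as had 4.89% of all. Bst2 had the smallest p, at -0.35 (95% interval -0.62 to -0.08, adjusted p = 0.748), followed by Ifi44l, Oasl2, Oas1g and Ifitm2 with differences of 0.14, -0.29, -0.14 and -0.25. The estimate was below 0 for 56 of 68 members, with a median of -0.08. Over all transcript clusters the median was -0.001, and the share below 0 was not computed. The members share mice and arrays, so these signs are not independent. Without the 2 high arrays, both female, the estimate was below 0 for 52 members with a median of -0.03, and Bst2 stood at -0.23.

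The other genes of the pathway were counted in the order of the signal. No interferon gene was called in either genotype (0 of 19 measured with limma, 0 at an unadjusted p under 0.05). Ifnb1 had 0.01 in KO and -0.08 in WT mice, and Ifng had 0.06 in KO and 0.003 in WT mice. In each group 16 of the 19 had means below the lowest array median. Of 6 receptor genes 3 rose in KO and 4 in WT mice, led by Ifnar2 at 0.67 (adjusted p = 1.89e-06) in KO and 0.74 (adjusted p = 2.32e-07) in WT mice, Ifngr1 (0.48 in KO and 0.68 in WT mice) and Il10rb (0.39 in KO and 0.48 in WT mice). Among 9 genes of JAK-STAT signalling and its inhibitors, 3 rose and 1 fell in KO, and 5 rose and 1 fell in WT mice. Stat3, which also serves cytokines of the interleukin family, changed by 1.33 (adjusted p = 3.76e-13) in KO and 1.497 (adjusted p = 1.62e-14) in WT mice. Stat2, the partner of IRF9, changed by 0.43 (adjusted p = 0.00292) in KO and 0.69 (adjusted p = 8.87e-06) in WT mice, and the inhibitor Pias1 had -0.32 in KO and -0.37 in WT mice.

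Nucleic acid sensing followed, with 10 genes higher and 1 lower of 17 in KO and 11 higher and 1 lower in WT mice. The endosomal RNA receptor Tlr7 (1.52 in KO and 1.78 in WT mice), the DNA-pathway adaptor Sting1 (1.30 in KO and 1.59 in WT mice) and the kinase gene Eif2ak2, or PKR (1.37 in KO and 1.54 in WT mice), led, and the RNA-editing gene Adar had -0.28 in KO and -0.22 in WT mice. Between genotypes, 1 of the 17 sensing genes was called lower in KO mice after injury and 1 over both procedures, with 0 higher. Of 38 further interferon-stimulated genes outside the rule, 26 rose in KO and 28 in WT mice, and none fell. Lgals9 (1.94 in KO and 2.47 in WT mice) and Lgals3bp (1.17 in KO and 1.91 in WT mice), a galectin and a galectin-binding protein, led, followed by Trim30a (1.04 in KO and 0.99 in WT mice). The list medians were 0.35 in KO and 0.37 in WT mice, close to those of the members. Cxcl10, a chemokine of interferon-treated cells, was 0.53 in KO and 0.34 in WT mice, while Cxcl9 and Cxcl11 were not called.

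**Figure D5:**
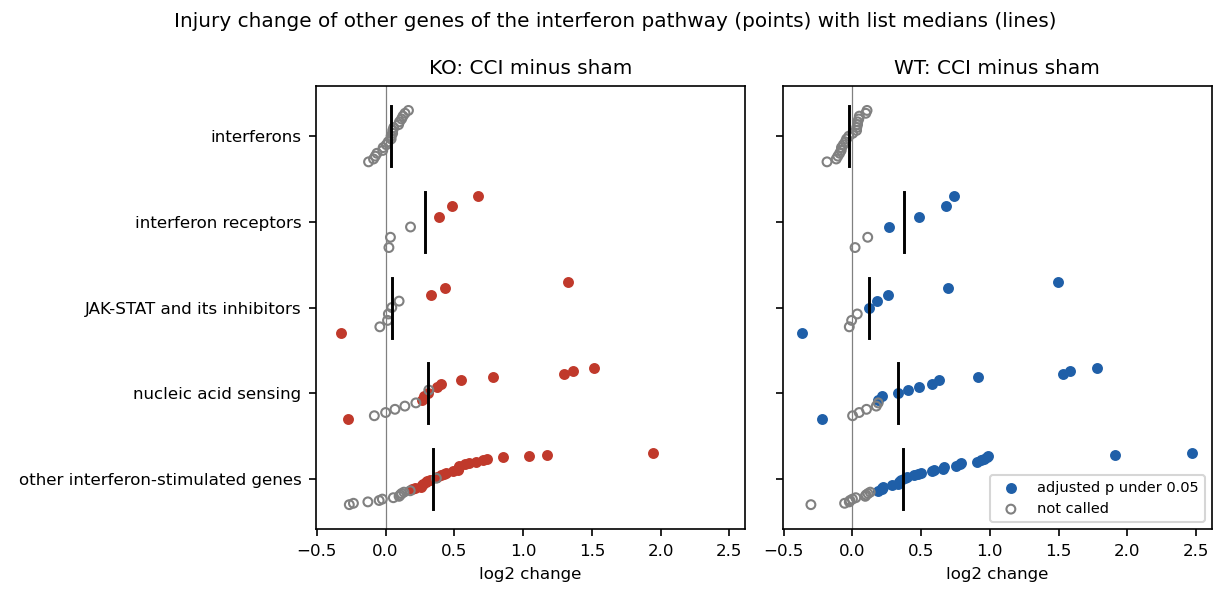
Log2 change after injury of other genes of the interferon pathway, KO left and WT right; filled points passed an adjusted p under 0.05, open points did not, and lines are list medians. The interferon genes cluster at 0 with no filled point, and most sensing genes and further interferon-stimulated genes lie right of 0.

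Cell type markers moved with the injury as well, and their part in the changes of these families was not tested. Monocyte and macrophage markers rose in 14 of 15 cases in KO and in 15 of 15 in WT mice, and the list mean lay between 7.24 and 7.91 on KO CCI arrays, against 6.19 to 6.38 on KO sham arrays. In WT mice it lay between 7.42 and 8.04 on CCI arrays, against 6.19 to 6.34 on sham arrays. Homeostatic microglia markers rose in 6 of 11 and fell in 1, Siglech, in KO mice, and rose in 8 in WT mice. Neutrophil markers rose in 6 of 10 in KO and 7 in WT mice, with S100a8 at 2.60 in KO and 2.49 in WT mice. Astrocyte markers rose in 4 of 9 and fell in 1 in each genotype, with Gfap at 3.06 in KO and 4.55 in WT mice. The interaction called 0 of the 9, Gfap among them, and 1 of the 9 was called higher in KO than in WT mice after sham. Endothelial markers rose in 6 of 12 in KO and 7 in WT mice and fell in 1 in each. Between genotypes, 2 of the 12 were called lower in KO mice after injury and 3 over both procedures, with 0 higher. All 11 measured T, B and NK cell markers, Cd3e, Ms4a1 and Ncr1 among them, had group means below the lowest array median in every group, and with limma 0 of the 11 rose (Cd8a fell in WT mice). Of 9 markers of cortical excitatory neurons, 7 fell in KO and 6 in WT mice, while Slc17a7 and Neurod2 were called in neither. Over both procedures 2 of the 9 were called higher in KO than in WT mice and 0 lower. The tissue expressed these neuron markers on every array, with list means of 10.51 to 10.94 on KO CCI, 11.14 to 11.40 on KO sham, 10.42 to 10.85 on WT CCI and 11.10 to 11.35 on WT sham arrays. Striatum and choroid plexus markers were not called after injury (0 of 9 each with limma, with 1 choroid plexus gene in KO mice at an unadjusted p under 0.05). The striatum list still had a median log2 change of 0.45 in KO and 0.51 in WT mice. Its mean spread from 6.80 to 9.35 on KO CCI arrays, against 6.94 to 7.92 on KO sham arrays. On WT CCI arrays it spread from 6.75 to 9.17, against 6.89 to 7.37 on WT sham arrays. Whether tissue sampling differed between injured and sham arrays was not tested. Earlier results had marked 7 arrays for high signal of these tissues. They were WT sham array 25, WT CCI arrays 13, 14, 16 and 35, and KO CCI arrays 22 and 40. Without those 7 arrays, 40 of the 45 members called in KO and 38 of the 43 called in WT mice kept their call. Those that lost it were Ifitm6, Gbp4, Gbp9, Gbp11 and Ifi208 in KO, and Irf2bpl, Gbp8, Gbp9, Iigp1 and Ifi35 in WT mice.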

How the data were processed

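Cortical tissue RNA (100 ng) of 28 mice was hybridised to Affymetrix mouse transcriptome arrays, taken as 1 per mouse, since the labels give a sex for each sample but no animal numbers. The authors deposited log2 signal values per transcript cluster, per the file headers and values between 2.21 and 19.93. The normalization and software that made them are not given in the sources used here, and no counts exist, so the number of arrays limits the precision. From 72688 transcript clusters, 6732 control clusters were left out and 65956 were tested. Gene symbols came from the platform annotation, updated by gene identifier. Each gene was read from its brightest transcript cluster.

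limma 3.58.1 in R 4.3.3 (lmFit, eBayes) was fitted over all 28 arrays with group and sex. P-values were adjusted by Benjamini-Hochberg over all 65956, with 0.05 as the threshold for a call. Contrasts were CCI minus sham in each genotype, KO minus WT, KO change minus WT change, and male minus female. The fit was tested on simulated data. Figures came from matplotlib 3.10.9 and tables from pandas 2.3.3, under Python 3.11.15.

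The members and lists were chosen with earlier results of these data known. Up to 3 members per role with the largest called injury change are given by array (28 members), uncalled members by their change. Irf2 and Isg15 are also given by array, chosen after their values were seen. In the genotype, interaction and sex comparisons the 5 members with the smallest p are named. Up to 3 genes with the largest called change stand for each other list; further genes of those lists (Ifnb1, Ifng, Pias1, Adar, Cxcl9, Cxcl10, Cxcl11, Cd3e, Ms4a1, Ncr1, S100a8, Gfap, Slc17a7, Neurod2, Siglech and Cd8a) were named after their values were seen.

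A background level from the negative control clusters was planned. Their 95th percentile lay between 10.16 and 10.43, above most transcript clusters (their medians were 6.54 to 6.75), and 65 members exceeded it on no array. The lowest array median, 5.79, was used in its place as a mark of low signal. Close paralogs (Ifit3 and Ifit3b, Oas1a and Oas1g, the p200 family) may share probe signal, which was not tested.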

Additional observations from a re-analysis of the deposited data

Results flagged for a closer look

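Within the 28 members chosen by the rule for named genes, 17 of 112 groups of 7 arrays held 1 array far from the other 6, by Dixon's test of the gap against the group's range. For groups not picked by their values, chance flags about 1 in 20, or 5.6 of 112. The 28 members were picked for large called changes, and a high injured array may have helped a member in. The 5.6 is therefore not a matching chance level for the 17 flags. KO CCI array 23 accounts for 6 of them and WT CCI array 15 for 6. On KO CCI array 23, Gbp2 read 9.66 (others 6.78 to 7.29), Igtp 8.15 (others up to 7.04), Irgm2 6.71 (up to 5.93), Irf7 6.12 (up to 5.74), Oas1a 6.25 (up to 5.70) and Oas2 5.72 (up to 5.36). On WT CCI array 15, Gbp7 read 9.82 (others up to 9.05), Gbp2 8.32 (up to 7.40), Gbp3 8.05 (up to 7.09), Igtp 8.09 (up to 7.33), Oasl2 7.07 (up to 5.92) and Mx2 6.40 (up to 6.09). The members flagged on these arrays share the array, so the flags are not independent of each other.

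The other flags fell on single arrays. Irf2bpl read 9.16 on WT CCI array 34 (others 8.79 to 8.94) and 9.08 on KO sham array 31 (others 8.55 to 8.67). Ifitm1 read 5.74 on the same KO sham array (others 5.18 to 5.39). Gbp3 read 5.71 on WT sham array 1, below the others at 6.05 to 6.15, and Ifi30 read 5.58 on WT sham array 3, below the others at 6.08 to 6.12.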

How the results depend on the processing

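With 1 array left out at a time, 38 to 47 members were called after injury in KO and 38 to 45 in WT mice. The genotype comparisons after sham, after injury and over both, the interaction and the sex comparison gave 0 to 0 members. Arrays with title numbers 1 to 24 alone gave 28 members in KO and 28 in WT mice, and numbers 25 to 42 alone gave 19 in KO and 21 in WT mice. Fewer arrays entered those fits, and all 45 members called in KO and all 43 called in WT mice had the same sign in both runs. Testing only clusters brighter than the median kept 32 members in the fit and called 29 in KO and 26 in WT mice. Requiring a log2 change of at least 0.5 as well left 23 in KO and 23 in WT mice. The shares of all transcript clusters called in these fits are not given here. The lower counts therefore cannot be read as a result about the members. Under the remaining alternatives run (no sex term, run as covariate, only the arrays compared, single-gene clusters, quantile normalization, centring, variance trend, array weights, adjusted p under 0.01, other symbol rules, without the 7 arrays and without the 2 high arrays, the last chosen after seeing the data) each count was within 1.5 times its main value. No member called after injury changed sign under any alternative, and 38 in KO and 37 in WT mice kept their call whichever array was left out. No paired analysis was possible because the arrays' title numbers are not shared between groups. The number of arrays and the low signal of 38 members limit what could be detected.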
